A study of Mus musculus with 12 samples.

Results

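The FGF set measured in the mouse forelimb comprised 36 protein-coding genes, out of 51826 genes in the forelimb count table and 21793 protein-coding genes among them: 22 fibroblast growth factor ligands, 5 receptors and 9 response genes. The ligands were all symbols of the form Fgf and a number, and the receptors were Fgfr1 to Fgfr4 and Fgfrl1. The response genes were Spry1, Spry2, Spry4, Spred1, Spred2, Dusp6, Etv4, Etv5 and Il17rd. The rule that picks them reads gene names and biotypes. The question was how their RNA differed in limbs with Impdh2 deleted in the mesenchyme. RNA was sequenced from E12.5 forelimbs of wild-type (WT) embryos and of Prx-cKO embryos, in which Impdh2, an enzyme of guanine nucleotide synthesis, was deleted in limb mesenchymal progenitors. There were 2 libraries per genotype. The labels do not say whether a library held 1 embryo or a pool, nor whether the WT embryos carried floxed alleles or the Cre, so p-values measure only the spread between these samples. The Cre is described as acting in mesenchymal progenitors; the limb ectoderm, which makes several FGFs, the muscle precursors that migrate in from the somites, and the vessels are other lineages of the same tissue.

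FGF ligands bind receptor tyrosine kinases together with heparan sulfate, and the activated receptor signals through RAS and the MAP kinases. The ETS factors Etv4 and Etv5 and the feedback inhibitors of the Sprouty, Spred, Dusp and Il17rd families are transcribed downstream and are widely read as a sign of FGF signalling. In the limb bud, Fgf10 from the mesenchyme maintains the apical ectodermal ridge, and ridge ligands led by Fgf8 act back on the mesenchyme and sustain Shh. Fgf18, Fgfr3 and Fgfr2 are best known from the skeletal condensations, and Fgfr4 from muscle progenitors.

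In replicate order, the WT libraries totalled 40931953 and 69466572 counts and the Prx-cKO libraries 28892215 and 54452957. Levels are in CPM, a gene's count relative to the scaled total of its library. Impdh2 itself, on chromosome 9 from 108560286 to 108565584 in GRCm38, was at 260 and 272 CPM in WT against 170 and 199 CPM in Prx-cKO, so 69.3% remained (log2 fold change −0.53, SE 0.16, edgeR adjusted p 0.443). Its exons overlap those of Ndufaf3 on the other strand, and the labels do not say which exons were deleted. Of the limb identity genes, the forelimb factor Tbx5 was at 91.2 to 199 CPM and Prrx1 at 175 to 397 CPM, against 8.65 to 15.3 CPM for the hindlimb gene Tbx4 and 2.03 to 5.15 CPM for Pitx1. The female-specific transcript Xist had 92566 counts in WT replicate 1 and 139968 in Prx-cKO replicate 2, with 0 counts there of the Y-linked Ddx3y. In the other WT library Xist was at 114 counts and Ddx3y at 4579, and in the other Prx-cKO library at 10 and 1152 counts. Each genotype therefore had 1 female-type and 1 male-type library, and the ratio within each type is given beside the main values. Each same-type pair joins libraries of different replicate numbers. A shift shared by same-numbered libraries would enter the ratios of the pairs with opposite signs. In whole tissue, fewer cells of a type and less RNA per cell cannot be told apart.

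No FGF gene passed the test across all genes (0 of 29 tested, and 0% of 19987 genes; edgeR quasi-likelihood, Benjamini-Hochberg adjusted p under 0.05). The smallest adjusted p among the members was 0.34. Of the 36 members, 7 ligands were too low to test. At an unadjusted p under 0.05 there were 9 of 29 members, or 31%, against 10.5% of all genes tested. The 5 higher in Prx-cKO were Fgf8, Fgfr4, Etv4, Etv5 and Spry4, with 5.87% of all genes called in that direction. The 4 lower were Fgf18, Fgf12, Fgfr2 and Fgfr3, with 4.61% of all genes. The libraries of the genotypes did not overlap in 19 of 29 members (65.5%), 11 higher and 8 lower, against 43.2% of all genes, of which 22.2% were higher and 21% lower. Fgf12 and Fgf4 passed the filter on low counts only through their WT level. Among the 27 members above the filter level in every library, 8 had an unadjusted p under 0.05 and 17 did not overlap, 11 higher and 6 lower. The shares above are over all 19987 genes tested. None is given for genes above that level in every library, so these counts have no matching share. DESeq2, run as an alternative, called 3 members, Fgfr4 and Etv4 higher and Fgf18 lower, against 1.45% of all genes (0.699% higher and 0.752% lower). The plot of levels by library shows these patterns for the 25 members whose mean reached 1 CPM.

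**Figure D1:**
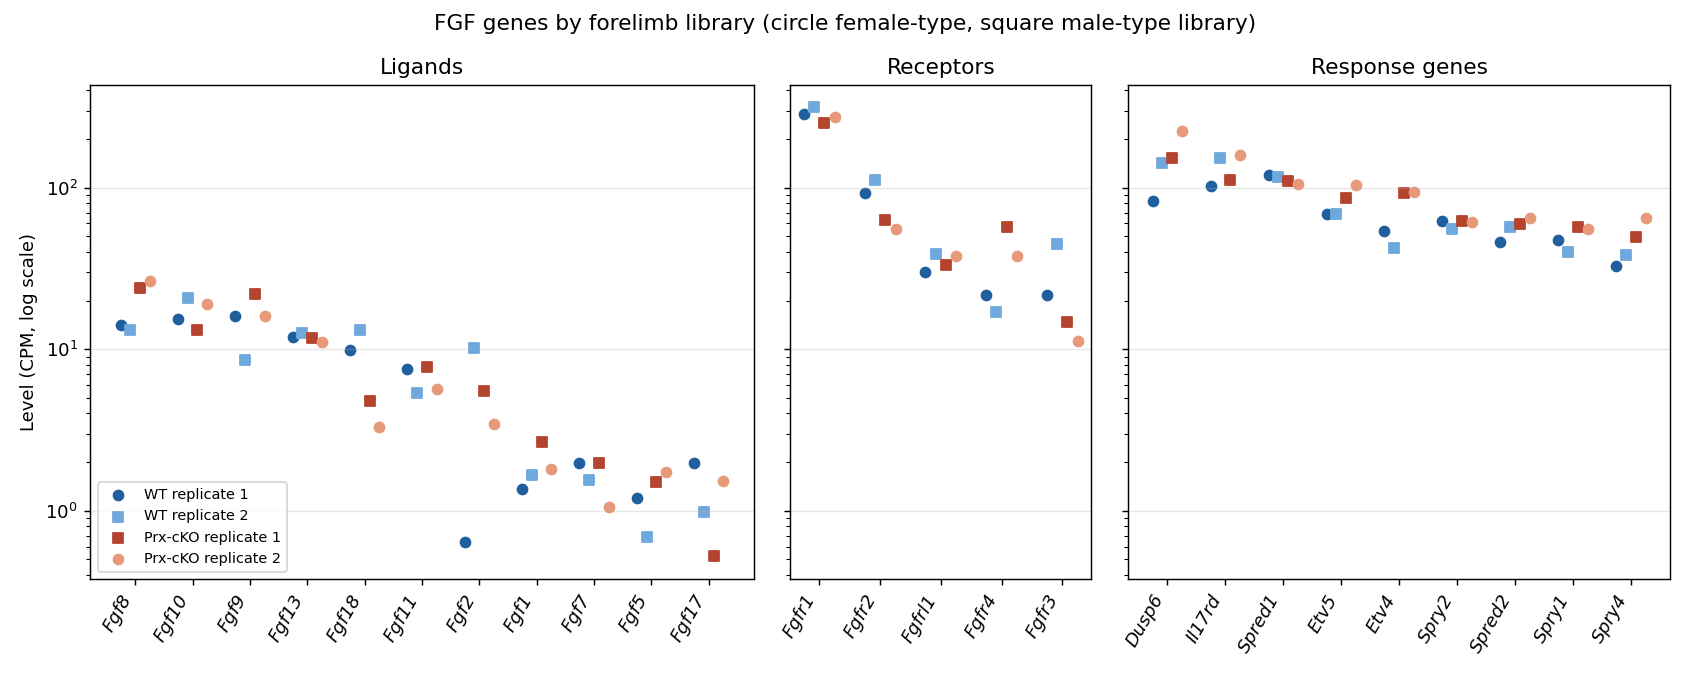
Level of each FGF gene whose mean reached 1 CPM (y axis, CPM on a log scale) in the 4 forelimb libraries, grouped as ligands, receptors and response genes; each point is 1 library (circles, female-type; squares, male-type). Both Prx-cKO points of Fgf8, Fgfr4, Etv4, Etv5 and Spry4 lie above both WT points, and both of Fgf18, Fgfr2 and Fgfr3 lie below them.

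The sequences just upstream of 3 members, chosen after the data were seen, are given as a description. Dusp6 and Etv5 are response genes whose Prx-cKO libraries both lay above WT. Fgf18 is a ligand whose Prx-cKO libraries both lay below. Each is the run of up to 250 bases before the RefSeq start that holds no annotated exon, 5′ to 3′ on the gene's strand in GRCm38.p6. Capitals mark GGAA, the core that ETS factors such as Etv4 and Etv5 bind, or its reverse complement TTCC. The Etv5 stretch precedes a start inside the annotated gene. The stretches are chr10:99262981-99263230 on the plus strand for Dusp6, chr16:22438369-22438618 on the minus strand for Etv5, and chr11:33147401-33147650 on the minus strand for Fgf18.
Dusp6: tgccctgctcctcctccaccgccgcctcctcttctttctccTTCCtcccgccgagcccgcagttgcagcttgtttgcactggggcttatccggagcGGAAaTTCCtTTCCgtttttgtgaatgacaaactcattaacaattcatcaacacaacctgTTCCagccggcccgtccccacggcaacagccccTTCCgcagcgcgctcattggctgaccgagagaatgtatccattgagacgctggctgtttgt
Etv5: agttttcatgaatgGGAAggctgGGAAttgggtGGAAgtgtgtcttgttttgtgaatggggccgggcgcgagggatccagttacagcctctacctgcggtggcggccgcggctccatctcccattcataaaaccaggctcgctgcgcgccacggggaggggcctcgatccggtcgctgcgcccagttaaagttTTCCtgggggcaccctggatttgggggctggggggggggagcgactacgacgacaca
Fgf18: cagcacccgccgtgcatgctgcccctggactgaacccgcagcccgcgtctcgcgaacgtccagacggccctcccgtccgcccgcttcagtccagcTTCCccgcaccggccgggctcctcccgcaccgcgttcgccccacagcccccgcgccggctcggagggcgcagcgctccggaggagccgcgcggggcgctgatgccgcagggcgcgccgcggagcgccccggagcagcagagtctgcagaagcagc
The core occurred 6 times in the Dusp6 stretch, 4 times in the Etv5 stretch and 1 time in the Fgf18 stretch. In the same order, G and C made up 56.4%, 62% and 77.2% of the bases. The word was also picked after the data were seen, and whether its count goes with the direction of change was not tested. So short a word is common: 96% of all 32851 promoter windows (250 bases before to 50 after the start) held it, with a median of 3 per window. Of the 35 member windows, 33 held it, with a median of 4. These windows are longer than the stretches of 250 bases. The longer ETS word CCGGAA, searched on both strands, was in a window of 5 of the 27 members that matched the table by symbol (Fgf5, Fgf12, Fgfr4, Fgfrl1 and Spry2), or 18.5%, against 16.7% of all genes with a window. Of the 7 response genes with a window, Spry2 alone held it. The AP-1 word TGACTCA was in a window of 1 member, Fgf12, or 3.7%, against 5.95% of all genes. A match is a description of these letters and not a binding site. The members with no window in the table were Fgf1, Fgf8, Fgf15, Fgf16, Fgf17, Fgf20, Fgfr1, Etv4 and Spry4.

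Among the ligands, Fgf8, the main product of the apical ectodermal ridge (chromosome 19, 45736798 to 45742915), was higher in Prx-cKO. It was at 14.1 and 13.1 CPM in the WT libraries and at 23.8 and 26.6 CPM in the Prx-cKO libraries. The WT pair and the Prx-cKO pair were each tight and well apart, with means of 13.6 ± 0.648 and 25.2 ± 2.02 CPM (SD, n = 2). The log2 fold change was 0.89 with an SE of 0.19 (edgeR adjusted p 0.385), with 0.92 in the female-type pair and 0.86 in the male-type pair. Whichever library was left out, it stayed between 0.81 and 0.98. In DESeq2 its adjusted p was 0.052.

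The other ridge ligands were less even between replicates. Fgf9, which is made in ridge and limb ectoderm, was at 16.1 and 8.51 CPM in WT against 21.9 and 16 CPM in Prx-cKO, and the groups overlapped. The log2 fold change was 0.63 with an SE of 0.37 (edgeR adjusted p 0.597), level in the female-type pair and 1.36 in the male-type pair. Fgf17, a ridge ligand, was at 1.98 and 0.975 CPM in WT against 0.522 and 1.53 CPM in Prx-cKO, again overlapping, with an edgeR adjusted p of 0.873. Fgf4, a posterior ridge ligand maintained by Shh, was near the limit of detection, at 15 and 34 counts in WT and 3 and 15 in Prx-cKO. Its log2 fold change was −0.93 with an SE of 0.66 (edgeR adjusted p 0.658). Over the libraries left out it ran from −1.99 to −0.52, and it was lowest without Prx-cKO replicate 2. Whether Fgf8 differed from the other ridge ligands in its response was not tested.

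Markers of the limb surface ectoderm and ridge were measured beside Fgf8. Their summed level was 922 and 1081 CPM in WT against 1062 and 1171 CPM in Prx-cKO over 20 genes, none of them at 0. Of these 20, 14 had a positive and 6 a negative log2 fold change, with a median of 0.09; 3 lay wholly above and 3 wholly below WT, against 22.2% and 21% of all genes. The ridge factor Sp8 was at 12.1 and 11.9 CPM in WT against 18.1 and 16.1 CPM in Prx-cKO, and Sp6 at 22.4 and 23.6 against 22.3 and 27 CPM. The ectodermal keratin Krt5 was at 279 and 353 against 382 and 492 CPM, and Krt14 at 144 and 195 against 148 and 112 CPM. The 3 wholly below WT were Dlx5, Dlx6 and Wnt7a. Dlx5 was at 21.2 and 21.6 CPM in WT against 17.7 and 16.3 CPM in Prx-cKO. Dlx6 was at 3.28 and 3.05 against 1.57 and 1.47 CPM, and Wnt7a at 16.1 and 16.9 against 13.8 and 15.4 CPM. The part of the ectodermal share of the tissue in the Fgf8 value was not tested.

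Fgf10, the mesenchymal ligand that maintains the ridge, was at 15.3 and 20.8 CPM in WT against 13.1 and 19.1 CPM in Prx-cKO. In both genotypes replicate 2 was the higher library. The libraries of the genotypes overlapped and the log2 fold change was −0.16 with an SE of 0.28 (edgeR adjusted p 0.871). It had either sign when single libraries were left out, from −0.46 to 0.09, and it was 0.32 in the female-type pair and −0.66 in the male-type pair. Its exons overlap those of Gm16263 on the other strand.

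Fgf18, a ligand of developing cartilage and bone (chromosome 11, 33117430 to 33147400), had the lowest log2 fold change of the ligands with a mean of at least 1 CPM. It was at 9.85 and 13.1 CPM in WT against 4.77 and 3.29 CPM in Prx-cKO. Both mutant libraries were far below both WT libraries, with means of 11.5 ± 2.3 and 4.03 ± 1.04 CPM (SD, n = 2). The log2 fold change was −1.53 with an SE of 0.32 (edgeR adjusted p 0.385; DESeq2 adjusted p 0.00589), and it was −1.58 and −1.46 in the female-type and male-type pairs. Without WT replicate 1 it was −1.76. Leaving out 1 library at a time gave −1.80 to −1.27.

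The remaining ligands with a mean of at least 1 CPM showed small or uneven differences. Fgf13, an intracellular member of the family that is not secreted, was at 11.9 and 12.6 CPM in WT against 11.8 and 11.1 CPM in Prx-cKO. Fgf11, another intracellular member, was at 7.58 and 5.34 CPM in WT against 7.72 and 5.64 CPM in Prx-cKO. Both were nearly level between genotypes, with log2 fold changes of −0.1 (SE 0.21) and 0.05 (SE 0.33), although the Fgf13 libraries did not overlap. Fgf1, a ligand of all the kinase receptors, was at 1.37 and 1.67 CPM in WT against 2.68 and 1.8 CPM in Prx-cKO. Fgf5, a secreted ligand known from hair growth, was at 1.2 and 0.683 CPM in WT against 1.5 and 1.74 CPM in Prx-cKO. Both lay above WT in both mutant libraries, at log2 fold changes of 0.51 (SE 0.41) and 0.85 (SE 0.47). Fgf7, a mesenchymal ligand of epithelial Fgfr2, overlapped at 1.98 and 1.55 CPM in WT against 1.98 and 1.06 CPM in Prx-cKO. The edgeR adjusted p of these 5 ran from 0.579 to 0.972.

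Fgf2, a ligand without a classical secretion signal, varied far more between WT replicates than between genotypes. It was at 0.638 CPM in WT replicate 1 and 10.2 CPM in WT replicate 2, from 27 and 733 counts, and at 5.5 and 3.46 CPM in Prx-cKO. Its log2 fold change of −0.35 (SE 1.06) became 2.79 without WT replicate 2 and −1.25 without WT replicate 1. Its exons overlap those of Gm43439 and, on the other strand, of Nudt6, and Nudt6 was at 1.62 to 2.4 CPM in the 4 libraries. Whether counting used strand is not given in the sources used here.

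At the low end, Fgf12, an intracellular member, was at 0.496 and 0.766 CPM in WT against 0.209 and 0.157 CPM in Prx-cKO, from 21, 55, 6 and 8 counts. Its log2 fold change was −1.87 with an SE of 0.62 (edgeR adjusted p 0.456). Fgf15, the mouse counterpart of human FGF19, and Fgf6, a ligand known from muscle, were at 0.279 to 0.73 CPM in every library. The 7 ligands not tested were Fgf3, Fgf14, Fgf16, Fgf20, Fgf21, Fgf22 and Fgf23, with 0 to 16 counts per library. Fgf21, a hormone of the liver, had 0 counts in all 4 libraries, which allows a level of up to 0.0432 to 0.104 CPM by counting error alone (3 counts of each library's total).

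By mean level per kilobase, the receptors were ordered differently in the genotypes. Per kilobase of exon, the WT means were 30.3 CPM for Fgfr1, 12.4 for Fgfrl1, 9.87 for Fgfr2, 5.48 for Fgfr4 and 4.66 for Fgfr3. In Prx-cKO the same levels were 26.7 for Fgfr1, 13.4 for Fgfr4, 12.8 for Fgfrl1, 5.71 for Fgfr2 and 1.82 for Fgfr3. In WT the libraries of Fgfr4 and Fgfr3 overlapped in level per kilobase, and in Prx-cKO those of Fgfr4 and Fgfrl1 did. In Prx-cKO Fgfr4 ranked above Fgfr2. The exon length used was 3542 bp for Fgfr4 and 10328 bp for Fgfr2, whose annotated exons overlap those of Ctbp2, so this order depends on the annotation. The counts are per gene, so the epithelial and mesenchymal splice forms of Fgfr1, Fgfr2 and Fgfr3 are not separated.

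Fgfr1, the main receptor of the limb mesenchyme, was at 285 and 314 CPM in WT against 253 and 274 CPM in Prx-cKO. The mutant libraries lay just below WT, at a log2 fold change of −0.18 with an SE of 0.15 (edgeR adjusted p 0.703). Its exons overlap those of Gm16159 on the other strand. Fgfrl1, a receptor-like protein without a kinase domain, was at 30.2 and 38.9 CPM in WT against 33.4 and 37.6 CPM in Prx-cKO, which overlapped.

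Fgfr2, the receptor of the ridge in 1 splice form and of the skeletal mesenchyme in another (chromosome 7, 130162451 to 133123350), was at 92.7 and 111 CPM in WT against 62.7 and 55.2 CPM in Prx-cKO. The groups were well separated, with means of 102 ± 13 and 59 ± 5.35 CPM (SD, n = 2) and a log2 fold change of −0.79 with an SE of 0.17 (edgeR adjusted p 0.393). It was −0.75 in the female-type and −0.82 in the male-type pair. Whichever library was left out, it stayed between −0.95 and −0.65. Its annotated exons overlap those of Ctbp2 on the same strand, so its counts are uncertain to that extent.

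Fgfr3, the receptor of cartilage (chromosome 5, 33721674 to 33737068), was at 21.7 and 44.9 CPM in WT against 14.8 and 11.2 CPM in Prx-cKO. Both mutant libraries were below both WT libraries, but the WT libraries differed by about as much as the genotypes did. The log2 fold change was −1.37 with an SE of 0.39 (edgeR adjusted p 0.441; DESeq2 adjusted p 0.0585). It was −1.83 without WT replicate 1 (edgeR adjusted p 0.00505) and −0.74 without WT replicate 2, so its size depends on which WT library is used. Fgfr3 overlaps G630022F23Rik on the other strand, which was at no more than 0.961 CPM.

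Markers of cartilage precursors were lower in the same mutant libraries as Fgf18, Fgfr2 and Fgfr3. Their summed level over 18 genes was 1598 and 1658 CPM in WT against 697 and 528 CPM in Prx-cKO. Of the 17 tested, 16 had a negative log2 fold change and 15 lay wholly below WT, against 21% of all genes, with a median of −1.53 against −0.03 over all genes tested. Snorc alone was at 0 in a library. Sox9, the factor that specifies cartilage, was at 109 and 136 CPM in WT against 49.6 and 42.9 CPM in Prx-cKO. The part of the cartilage share in the 3 FGF values was not tested.

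Fgfr4 went the other way (chromosome 13, 55152640 to 55168759). It was at 21.8 and 17.1 CPM in WT against 56.8 and 38 CPM in Prx-cKO. Both mutant libraries lay above WT and differed from each other by more than the WT libraries did, with means of 19.4 ± 3.33 and 47.4 ± 13.3 CPM (SD, n = 2). The log2 fold change was 1.29 with an SE of 0.27 (edgeR adjusted p 0.382; DESeq2 adjusted p 0.00541), with 0.80 in the female-type and 1.73 in the male-type pair. Without WT replicate 1 it was 1.43, and leaving out 1 library at a time gave 0.98 to 1.55.

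Skeletal muscle markers were higher in the same libraries as Fgfr4. Their sum over 18 genes was 484 and 452 CPM in WT against 1252 and 605 CPM in Prx-cKO, none of them at 0. Of the 17 tested, 16 had a positive log2 fold change and 12 lay wholly above WT, against 22.2% of all genes, with a median of 0.94. The median ratio was 0.18 on the log2 scale in the female-type pair and 1.47 in the male-type pair. The contractile genes Myh3, Tnnc1, Ttn and Myl4 were higher than WT in Prx-cKO replicate 1 and below both WT libraries in Prx-cKO replicate 2. The myogenic factor Myod1 was at 40.7 and 42.9 CPM in WT against 120 and 79.9 CPM in Prx-cKO, and Pax3, a factor of migrating muscle precursors, at 3.09 and 3.16 against 11.6 and 13.3 CPM. The part of the muscle share in the Fgfr4 value was not tested.

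Markers of other cell types were measured in the same way. Over all genes tested, 9433 of 19987 had a positive log2 fold change. Myeloid markers summed to 65.2 and 65.1 CPM in WT against 139 and 128 CPM in Prx-cKO (12 of 12 with a positive log2 fold change). Endothelial markers summed to 282 and 260 against 381 and 357 CPM (14 of 15). The exception, Erg, was at 16.5 and 19.3 CPM in WT against 9.63 and 8.71 CPM in Prx-cKO. Nerve markers summed to 156 and 148 against 177 and 219 CPM (11 of 15 positive), and erythroid markers to 5226 and 3837 against 4731 and 4052 CPM (5 of 10). Limb mesenchyme markers, the lineage of the deletion, summed to 2733 and 3132 CPM in WT against 1974 and 2030 CPM in Prx-cKO, with 15 of 17 lower.

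**Figure D2:**
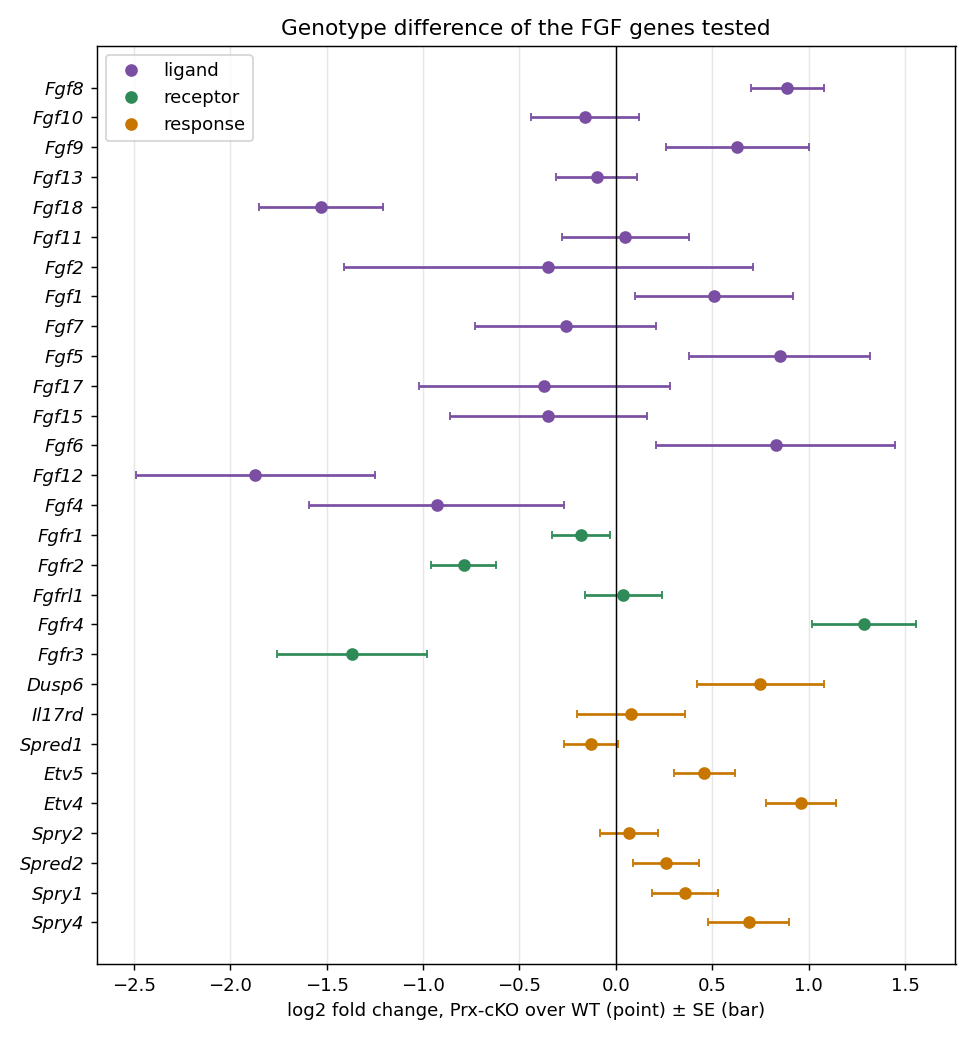
log2 fold change of Prx-cKO over WT for the 29 FGF genes tested (x axis; point, edgeR estimate; bar, ± 1 SE), in groups by role and ordered by level within each. Response genes lie at or above 0 except Spred1, whereas Fgf18 (−1.53), Fgfr3 (−1.37) and Fgfr2 (−0.79) lie to the left and Fgfr4 (1.29) to the right.

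Among the 9 response genes, 8 had a positive log2 fold change, against 9433 of the 19987 genes tested. The median of the 9 was 0.36, against −0.03 over all genes tested. Within pairs it was 0.59 in the female-type pair and 0.16 in the male-type pair, against −0.01 and 0.03 over all genes. In 6 of the 9 both mutant libraries lay above both WT libraries, against 22.2% of all genes, and in 1, Spred1, both lay below. At an unadjusted p under 0.05 there were 3, all higher, against 5.87% of all genes.

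Etv4, an ETS factor induced by FGF in the distal limb (chromosome 11, 101769742 to 101785371), had the smallest p of all members. It was at 53.8 and 42.5 CPM in WT against 93 and 94.3 CPM in Prx-cKO. The mutant libraries were nearly equal and well above WT, with means of 48.1 ± 8.01 and 93.7 ± 0.897 CPM (SD, n = 2). The log2 fold change was 0.96 with an SE of 0.18 (edgeR adjusted p 0.34; DESeq2 adjusted p 0.0121), with 0.81 in the female-type and 1.13 in the male-type pair. Over the libraries left out it ran from 0.81 to 1.11.

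Etv5, its close relative (chromosome 16, 22381309 to 22439719), was at 69.1 CPM in both WT libraries and at 86.8 and 104 CPM in Prx-cKO. Its difference was smaller than that of Etv4, at a log2 fold change of 0.46 with an SE of 0.16 (edgeR adjusted p 0.46), with 0.59 and 0.33 within the female-type and male-type pairs. Spry4, a Sprouty inhibitor of RAS signalling, was at 32.5 and 38.5 CPM in WT against 49.6 and 65.1 CPM in Prx-cKO. Both mutant libraries were above WT, at a log2 fold change of 0.69 with an SE of 0.21 (edgeR adjusted p 0.443).

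Dusp6, the phosphatase that inactivates ERK (chromosome 10, 99263231 to 99267489), was the most abundant response gene per kilobase, at a WT mean of 35.8 CPM per kb. It was at 82.6 and 142 CPM in WT against 152 and 225 CPM in Prx-cKO. In both genotypes replicate 2 was the higher library. The lower mutant library was only just above the higher WT library, and the log2 fold change of 0.75 with an SE of 0.33 (edgeR adjusted p 0.506) was 1.44 in the female-type pair and 0.10 in the male-type pair. Without WT replicate 1 it was 0.38, and without Prx-cKO replicate 2 it was 0.44.

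The other response genes differed less. Spry1, a Sprouty inhibitor, was at 47.7 and 40.1 CPM in WT against 57.4 and 55.4 CPM in Prx-cKO (log2 fold change 0.36, SE 0.17). Spred2, which restrains RAF activation, was at 46.4 and 57 CPM in WT against 59.2 and 64.7 CPM in Prx-cKO (0.26, SE 0.17). Both genes lay above WT in both mutant libraries, with edgeR adjusted p of 0.52 and 0.639. Spry1 exons overlap those of Gm42922 on the other strand. Spry2, another Sprouty inhibitor, overlapped at 62 and 55.5 against 61.8 and 61.6 CPM. Il17rd, the membrane inhibitor also called Sef, overlapped at 102 and 153 against 111 and 159 CPM. Spred1, a relative of Spred2, was at 119 and 117 CPM in WT and slightly lower, at 110 and 106 CPM, in Prx-cKO (−0.13, SE 0.14).

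**Figure D3:**
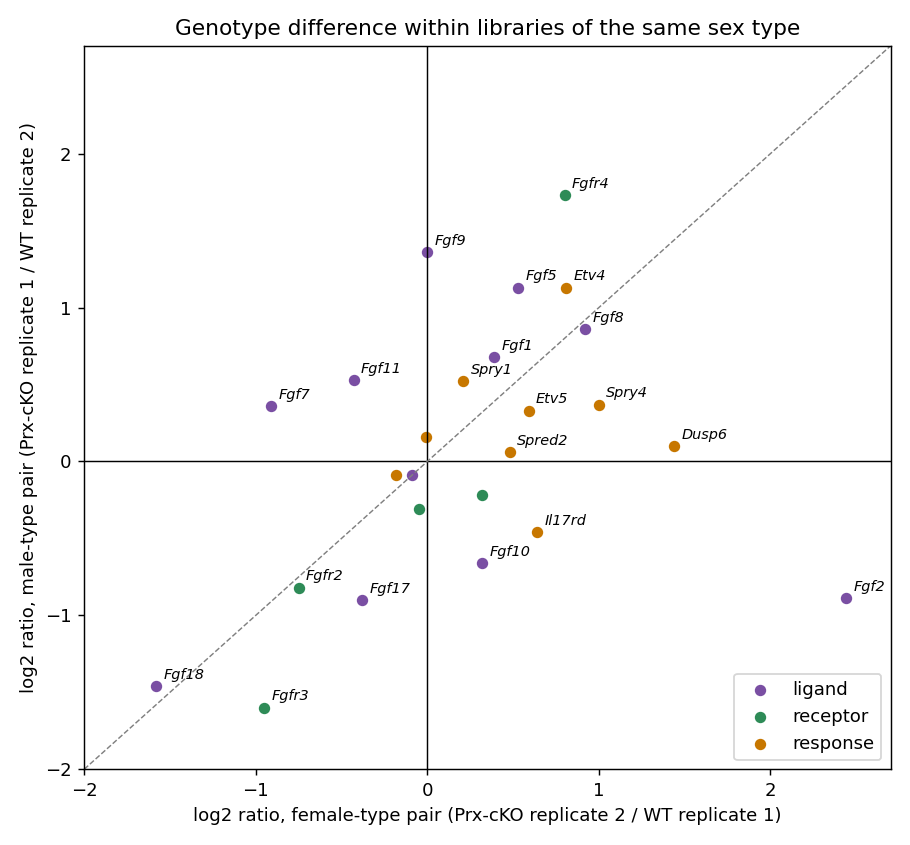
log2 ratio of Prx-cKO to WT in the female-type pair of libraries (x axis) and in the male-type pair (y axis) for FGF genes whose mean reached 1 CPM; each point is 1 gene, lines mark 0 and the dashed line equal ratios. Fgf8 and Fgf18 lie near the dashed line (0.92 and 0.86; −1.58 and −1.46), while Dusp6 (1.44 and 0.10) and Fgf2 (2.44 and −0.89) lie far from it.

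Within libraries of the same sex type, 11 of the 29 tested members were higher in Prx-cKO in both pairs, 9 were lower in both and 9 differed in direction; of all genes tested, 26.6% were higher in both and 25.2% lower in both. Those higher in both comprised 4 ligands, 1 receptor and 6 response genes. With 1 library of each genotype in a pair there is no test within a type, and an additive term for the type left 0 members called in edgeR, with 7 at an unadjusted p under 0.05, against 5.19% of all genes in that fit. Fgf8, Fgf18, Fgfr2, Etv4 and Etv5 had the same direction and a similar size in both pairs. Fgfr4, Fgfr3 and Spry4 had the same direction in both pairs and less even sizes, with 1.00 and 0.37 for Spry4 in the female-type and male-type pairs. These pairs cross the replicate numbers, and ratios between same-numbered libraries are not given.

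The other genes of the pathway were taken from 4 lists written from general knowledge. The intracellular cascade from Frs2 and Grb2 to the MAP kinases had 23 genes, all tested, with a median log2 fold change of −0.00086. By sign, 11 were higher and 12 lower. In 4 both mutant libraries lay above WT and in 8 both lay below, against 22.2% and 21% of all genes. At an unadjusted p under 0.05 there were 3, all higher, against 5.87% of all genes, and 0 passed in edgeR or DESeq2. Among those with the smallest p were Mapk3 (ERK1), at 58.2 and 56.5 CPM in WT against 75.3 and 80.5 CPM in Prx-cKO, Hras, at 67.8 and 61.4 against 80.6 and 96.6 CPM, the ERK kinase Map2k1, at 54.2 and 57.1 against 69.1 and 79.2 CPM, and on the lower side Rasa1, which restrains RAS, at 90.2 and 93.5 against 77.9 and 63.2 CPM. The 3 higher genes differed by 0.42 to 0.46 on the log2 scale, each with an SE of at most 0.17.

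A wider list of response genes (26 in the table, 25 tested) had a median of −0.01, with 12 higher and 13 lower by sign. In 4 both mutant libraries lay above WT and in 5 both lay below, against 22.2% and 21% of all genes. An unadjusted edgeR p under 0.05 was reached by 2, both higher, against 5.87% of all genes. None was called in edgeR or DESeq2. The 5 genes with the smallest p follow. Dusp9, a phosphatase of ERK, was at 85.7 and 97.5 CPM in WT against 125 and 202 CPM in Prx-cKO, a log2 fold change of 0.83 (SE 0.26). The immediate early gene Ier2 was at 84.1 and 78.9 CPM in WT against 97.5 and 129 CPM in Prx-cKO. Myc, at 21.5 and 14.6 against 38.1 and 23.7 CPM, and Dusp5, at 4.25 and 3.87 against 4.94 and 6.6 CPM, lay above WT in both mutant libraries, whereas Spred3 lay below, at 32.7 and 31 against 23.6 and 25.6 CPM. The 9 response members thus had a higher median than the 25 wider response genes, and the difference between the lists was not tested.

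Cofactors that shape FGF binding, mainly heparan sulfate enzymes and proteoglycans, included 20 genes with a negative log2 fold change among 28 tested, with a median of −0.14. The median was 0.07 without WT replicate 2, and it was 0.16 in the female-type pair against −0.43 in the male-type pair. Of the 28, 7 were lower at an unadjusted p under 0.05, against 4.61% of all genes, and 0 were called in edgeR, with 1, Sulf1, called by DESeq2. Sulf1, the extracellular sulfatase that trims heparan sulfate, was at 128 and 193 CPM in WT against 58.1 and 54.2 CPM in Prx-cKO, a log2 fold change of −1.51 with an SE of 0.24 (edgeR adjusted p 0.332; DESeq2 adjusted p 0.000192). Gpc3, a glypican, was at 761 and 719 against 475 and 479 CPM, and Ugdh, which makes the sugar precursor of heparan sulfate, at 96.1 and 97.5 against 55.9 and 66.2 CPM. Flrt2, a membrane partner of FGF receptors, was at 103 and 135 against 77.3 and 76 CPM, and Fgfbp1, a carrier that releases FGFs from the matrix, at 2.1 and 2.23 against 0.765 and 1.1 CPM. These 5, picked as the smallest p, all lay wholly below WT. Over the 28 tested, 10 lay wholly below and 2 wholly above, against 21% and 22.2% of all genes.

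Limb genes that signal to or from FGFs included higher and lower members. Of 27 tested, 4 were higher and 8 lower at an unadjusted p under 0.05, against 5.87% and 4.61% of all genes. In 9 both mutant libraries lay above WT and in 12 both lay below, against 22.2% and 21% of all genes, and the median log2 fold change was −0.01. Of the 27 genes, 6 are also in the limb mesenchyme marker list given above, Lhx9, Hoxd13 and Tbx5 among them. The 5 with the smallest p were all lower: Lhx9 at 163 and 183 against 81 and 72.5 CPM, Hoxd13 at 291 and 401 against 144 and 134 CPM, Lmx1b at 115 and 142 against 59.7 and 66.9 CPM, Tbx5 at 160 and 199 against 97 and 91.2 CPM, and Wnt5a at 206 and 257 against 119 and 136 CPM. These are transcription factors and a Wnt ligand of the limb mesenchyme, and DESeq2 called the first 4. The 4 higher genes, named after their values were seen, were Shh, Bmp7, Meis1 and Snai1. Shh, the posterior signal that ridge FGFs sustain, was at 1.94 and 0.78 CPM in WT against 3.3 and 6.71 CPM in Prx-cKO, a log2 fold change of 1.98 with an SE of 0.6 (edgeR adjusted p 0.444). Its mutant libraries lay above WT and differed from each other, and leaving out 1 library at a time gave 1.35 to 2.67.

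**Figure D4:**
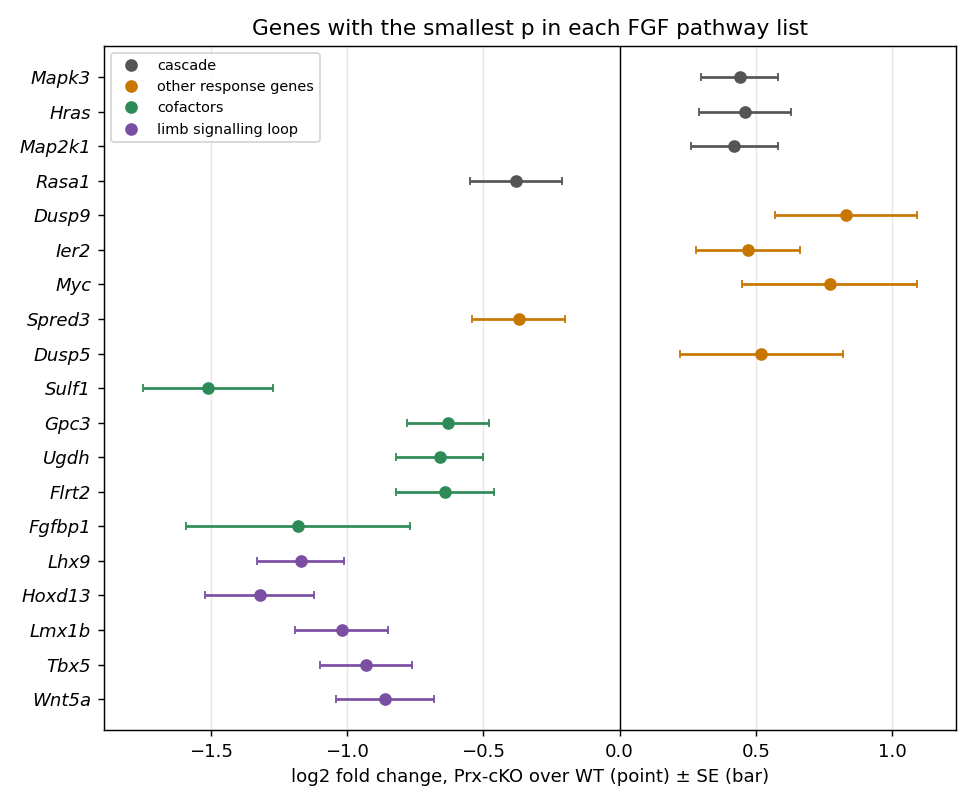
log2 fold change of Prx-cKO over WT (x axis; point, edgeR estimate; bar, ± 1 SE) for genes with the smallest p in each of 4 FGF pathway lists (5 per list, 4 for the cascade). The cofactors (Sulf1 at −1.51) and limb signalling genes shown (Hoxd13 at −1.32) lie below 0, and most cascade and other response genes shown lie above it (Dusp9 at 0.83).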

How the data were processed

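The authors deposited raw whole-number counts per Ensembl gene. Per the submitters' processing notes, GRCm38, FastQC 0.11.2, Trimmomatic 0.36, HISAT2 2.1.0 and DESeq2 1.12.4 were used. The counting tool, annotation and strand setting are not given in the sources used here. Per the labels' protocols, RNA was extracted with TRIzol and made into mRNA libraries. Symbols, biotypes, positions and exon lengths came from GENCODE M21 (GRCm38), which held 99.6% of the identifiers; promoter windows came from RefSeq (GRCm38.p6).

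The 4 forelimb libraries were fitted alone with the edgeR 4.0.16 quasi-likelihood test (filterByExpr, TMM, legacy = FALSE, genotype only, R 4.3.3), two-sided, Benjamini-Hochberg adjusted over 19987 genes, with calls at an adjusted p under 0.05. SE is the absolute log2 fold change over the square root of F. CPM uses the TMM-scaled library sizes. The fit was tested on simulated data. Floors cover counting error alone, because PCR copies cannot be told from separate molecules.

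Members and lists were chosen with earlier results of these data known. Each library's value is given for members with a mean of at least 1 CPM and for Fgf4, Fgf8, Fgf9, Fgf10 and Fgf17, and the 5 smallest p are named per pathway list, except 1 cascade gene that is not reported here. The lists are the cascade, other response genes, cofactors, limb signalling genes, and markers of 9 kinds of cell or tissue. Alternatives were DESeq2 1.42.0, other scaling, no filter, legacy = TRUE, a replicate block, leaving out each library, and, added after seeing the data, a term for library sex type and the GGAA word.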

Additional observations from a re-analysis of the deposited data

Results flagged for a closer look

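The series also holds 8 libraries of osteoclast differentiation cultures, grown from bone marrow of WT and LysM-cKO mice, which lie outside the forelimb comparison. FGF genes were detected there: 15 of the 36 FGF genes had more than 3 counts in each of them, above what a count of 0 allows: 3 ligands, 3 receptors and all 9 response genes. A further 11 members had 0 counts in all 8, among them Fgf8 and Fgf10. In CPM of the total count, the lowest, median and highest values over the 8 libraries were 113, 154 and 180 for Dusp6, 45.5, 63.2 and 126 for Etv5, and 4.71, 10 and 19.4 for Fgfr1. Etv4 was at 1.19, 1.57 and 3.07 CPM. The ligands above 3 counts throughout were Fgf7 (2.12 to 12.3 CPM), Fgf2 (1.54 to 3.49 CPM) and Fgf11 (1.4 to 3.69 CPM). Spry1 was at 0.537 to 1.17 CPM in the 4 libraries titled R0D3 and at 13.1 to 28.5 CPM in the 4 titled R40D3, a difference not tested here, and the labels do not spell out those titles.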

How the results depend on the processing

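The edgeR fit by genotype alone called 0 genes, with 2095 at an unadjusted p under 0.05, and 0 FGF members, with 9. DESeq2 called 301 genes and 3 members (Fgf18, Fgfr4 and Etv4). With a term for the sex type of the library, chosen after seeing the data, 1 gene was called and 1038 had an unadjusted p under 0.05. Leaving out 1 library at a time gave 0 to 603 called genes (603 without WT replicate 1, 104 without WT replicate 2), 611 to 4098 at an unadjusted p under 0.05, 0 to 5 called members (5 without WT replicate 1: Fgf18, Fgfr2, Fgfr3, Fgfr4 and Etv4) and 4 to 11 members at an unadjusted p under 0.05 (4 without Prx-cKO replicate 2). In those fits the lone library is assumed to vary like the other genotype. Same-numbered libraries deviated together weakly (r = 0.261 across 19987 genes). With 2 libraries per genotype, libraries of the same sex type, which cross those numbers, deviated in opposite directions to the same extent. Replicate 2 also had the higher total count in both genotypes. The labels do not say what the numbers share, and a shared replicate effect was not tested. With the replicate block 0 genes and 0 members were called, with 2707 genes and 11 members at an unadjusted p under 0.05. Of 29 members, 20 kept their sign in all 11 alternatives. The other 9 changed sign, all with an edgeR adjusted p of at least 0.85 in the fit by genotype alone. Scaling by library size alone, which moved the median of all genes from −0.03 to −0.129, gave −0.05 for Fgf11, −0.06 for Fgfrl1, −0.02 for Il17rd and −0.03 for Spry2, and no filter gave −0.0013 for Fgfrl1. Fgf2 was 0.02 with the replicate block and 0.44 with the sex-type term. Over the libraries left out, the log2 fold change ran from −0.46 to 0.09 for Fgf10, −0.19 to 0.28 for Fgf11, −1.25 to 2.79 for Fgf2, −0.71 to 0.19 for Fgf7, −1.45 to 0.14 for Fgf17, −0.69 to 0.06 for Fgf15, −0.17 to 0.24 for Fgfrl1 and −0.21 to 0.41 for Il17rd. The list medians ran, over the libraries left out, from −0.18 to 0.07 for the cascade, −0.05 to 0.23 for the other response genes, −0.37 to 0.07 for the cofactors and −0.26 to 0.15 for the limb signalling genes. With library size alone the medians were −0.11 for the other response genes and −0.11 for the limb signalling genes, and with no filter −0.04 for the other response genes. The cause of these shifts was not tested. With 2 libraries per genotype the spread is poorly known, and ligands under 1 CPM rest on few counts.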
